A study of Mus musculus with 2 samples.

Results

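Serglycin (Srgn) and 8 enzymes that build heparin chains on it were followed across mast cells, macrophages and fibroblasts of 1 single-cell RNA library. The 9 genes were taken by symbol, and all 9 were found among the 32285 genes of the matrix. In order along the pathway they are Srgn, Ext1, Ext2, Ndst1, Ndst2, Glce, Hs2st1, Hs6st1 and Hs3st1. The study asked which progenitors the postnatal mouse aorta holds, and it sequenced colonies of the macrophage type (CFU-M) grown from aortic cells. Per the labels, the cells came from the dorsal aorta of 2 male C57BL/6J mice aged 12 weeks. Culture in semi-solid methylcellulose lasted 14 days, and viable cells that exclude DAPI were sorted. The labels name no second condition, genotype or treatment, and no replicate library was analysed. The library also carried 3 MULTI-seq tags of unstated meaning, and the classes of cells went largely with these tags. The comparisons below are therefore between kinds of cells within 1 library, with no test and with intervals that cover counting error only.

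Serglycin is the core protein of the proteoglycan stored in mast cell granules, and many other blood cells make it too. A linker of 4 sugars is first placed on serines of the core, and Ext1 and Ext2 together then extend the chain. Ndst enzymes exchange acetyl groups for sulfate on glucosamine, Glce turns glucuronic acid into iduronic acid, and sulfotransferases of the Hs2st, Hs6st and Hs3st families add sulfate at further positions. Heparin is the most heavily sulfated product of this pathway and is known from connective tissue mast cells, where it holds chymase, tryptase, carboxypeptidase and histamine in the granule. Most other cells, fibroblasts included, make the less sulfated heparan sulfate on membrane and matrix proteins.

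The stretch of Srgn that carries the chains is shown first, because the whole pathway acts on it. The coding sequence of transcript Srgn-201 has 152 codons before its stop, and codons 90 to 109 form 10 serine-glycine pairs in a row. No other serine-glycine pair stands elsewhere in this coding sequence. The repeat lies in the last coding exon at chr10:62494998-62495057, minus strand, in GRCm38 with the GENCODE vM21 annotation. Capitals mark the serine codons, the places where chains can be attached.
Srgn repeat: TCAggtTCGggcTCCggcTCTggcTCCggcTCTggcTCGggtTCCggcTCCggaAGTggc
The 250 bases before the RefSeq transcript start (GRCm38.p6) are printed for Srgn, Ndst2 and Hs3st1, since these members were each over 2-fold higher in mast cell-like than in fibroblast-like cells. All 3 lie on the minus strand, at chr10:62527446-62527695, chr14:20734563-20734812 and chr5:39644632-39644881. For Srgn 2 promoters were listed and 1 is shown. The Hs3st1 window lies inside the annotated span of its gene (chr5:39613935-39755475), so it is not at the outermost start.
Srgn promoter: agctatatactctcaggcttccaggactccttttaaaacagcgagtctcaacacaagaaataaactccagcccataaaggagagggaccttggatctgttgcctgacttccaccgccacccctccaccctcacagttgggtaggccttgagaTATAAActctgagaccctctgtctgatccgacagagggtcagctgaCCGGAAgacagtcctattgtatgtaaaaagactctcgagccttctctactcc
Ndst2 promoter: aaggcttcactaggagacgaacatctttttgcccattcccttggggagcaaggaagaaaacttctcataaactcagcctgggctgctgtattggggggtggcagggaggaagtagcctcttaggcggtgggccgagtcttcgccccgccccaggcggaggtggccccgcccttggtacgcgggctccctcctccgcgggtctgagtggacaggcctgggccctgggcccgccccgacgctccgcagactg
Hs3st1 promoter: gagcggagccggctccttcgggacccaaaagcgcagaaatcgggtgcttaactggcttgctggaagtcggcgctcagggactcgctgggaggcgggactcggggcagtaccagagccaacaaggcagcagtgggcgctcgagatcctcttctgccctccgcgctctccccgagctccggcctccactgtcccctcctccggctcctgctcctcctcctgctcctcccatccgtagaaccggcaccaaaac
Motifs were searched on both strands and are in capitals. The Srgn window held TATAAA, which begins 98 bases before the start, and the ETS-type core CCGGAA, which begins 52 bases before it. Of 32851 promoter windows of the same length, 12.4% held TATAAA and 12.0% held CCGGAA. The motif GATAA, in 22.6% of all windows, did not occur in these 3 windows. Neither did the E-box CACGTG (in 6.02%) or the AP-1 motif TGANTCA (in 6.75%). A match is a string of letters in a window and was not tested as a binding site.

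The matrix held 593248944 gene UMIs (unique molecular identifiers, 1 per captured RNA molecule) in 34813 barcodes, with a median of 13116 per barcode. After filtering, 30758 cells remained. Clusters were named from marker genes. Mast cell-like clusters held 22295 cells (72.5%), 1 fibroblast-like cluster held 5381 (17.5%), 1 macrophage-like cluster held 2754 (8.95%) and 328 cells stayed unnamed. Most cells of this library, labelled CFU-M progenitors, were thus mast cell-like by their markers. In them all 7 mast cell markers exceeded 50 CPM (UMIs per 1000000 gene UMIs of the group) and none of 8 macrophage markers did. Depth differed: the median cell had 11443 UMIs in the mast cell-like class, 31465 in the fibroblast-like and 8816 in the macrophage-like class. The labels name male mice, yet Xist, the RNA of the inactive X chromosome in females, was at 355.1 to 699.6 CPM in these 3 classes. Of 15 marker lists for other cell types, the megakaryocyte list (3304 CPM summed in the macrophage core described next, 1 of 5 genes at 50 CPM), the erythroid list (2944 CPM there, 2 of 5), the monocyte list (1848 CPM in fibroblast-like cells, 2 of 5) and the basophil list (1196 CPM in mast cell-like cells, 2 of 5) had the highest summed levels. The other lists reached at most 472.1 CPM in any class.

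The macrophage-like class was not uniform, and its results are given in full and for its core. On finer clustering it divided into 1706 cells, called the macrophage core here, and 1048 cells with mast cell and macrophage markers together. In the core, the 7 mast cell markers stood at 0.0502 to 0.0718 of their mast cell-like level (median 0.0679). In the 1048 mixed cells they stood at 0.551 to 0.682 of it, while macrophage markers stood at 0.327 to 0.385 of their core level. The mixed cells also held more UMIs, with a median of 13474 against 7391 in the core. More than 1 MULTI-seq tag was called in 58.7% of the mixed cells and in 6.51% of the core. Doublets may therefore be among the mixed cells, which was not tested, and values of the whole macrophage-like class include them. The finer cluster of the mixed cells also had S100a8, S100a9, Lyz1 and Il1b among its leading genes. S100a8 was at 239.6 CPM there, 12.4 in the core and at most 4.01 in the mast cell-like finer clusters. Which cells these genes come from was not tested. In the fibroblast-like class the mast cell markers stood at 0.137 to 0.158 of the mast cell-like level (median 0.153). Macrophage markers reached at most 0.00477 of the core level in mast cell-like cells, and fibroblast markers at most 0.0272 of the fibroblast-like level. RNA of mast cell markers was thus counted in every class, and each member below is read beside these shares.

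Mast cell-like cells were highest in Srgn, Ndst1, Ndst2, Hs2st1, Hs6st1 and Hs3st1, the macrophage core in Ext1, and fibroblast-like cells in Ext2 and Glce. All 9 members reached 5 CPM in at least 1 class of every pair. Against the macrophage core, 5 members were at least 2-fold higher in mast cell-like cells (Srgn, Ndst1, Ndst2, Hs2st1 and Hs3st1), where 24.4% of 10661 genes were. One member, Ext1, was at least 2-fold higher in the core, where 21.9% of genes were. The median log2 ratio of mast cell-like over core was 1.25 for the members and 0.26 for all genes tested. Against the whole macrophage-like class, 2 members were 2-fold higher in mast cell-like cells (Ndst2 and Hs3st1; 10.0% of 10489 genes) and 1 was lower (Ext1; 18.0%), with median log2 ratios of 0.65 and 0.16. Against fibroblast-like cells, 3 members were 2-fold higher in mast cell-like cells (Srgn, Ndst2 and Hs3st1; 15.5% of 11308 genes) and 1 was lower (Glce; 24.4%). Here the median log2 ratio was 0.35 for the members and −0.01 for all genes. Between the core and fibroblast-like cells, Srgn and Ext1 were 2-fold higher in the core (2 members; 17.4% of 11453 genes), and Ndst1 and Hs3st1 in fibroblast-like cells (2 members; 27.5%).

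**Figure D1:**
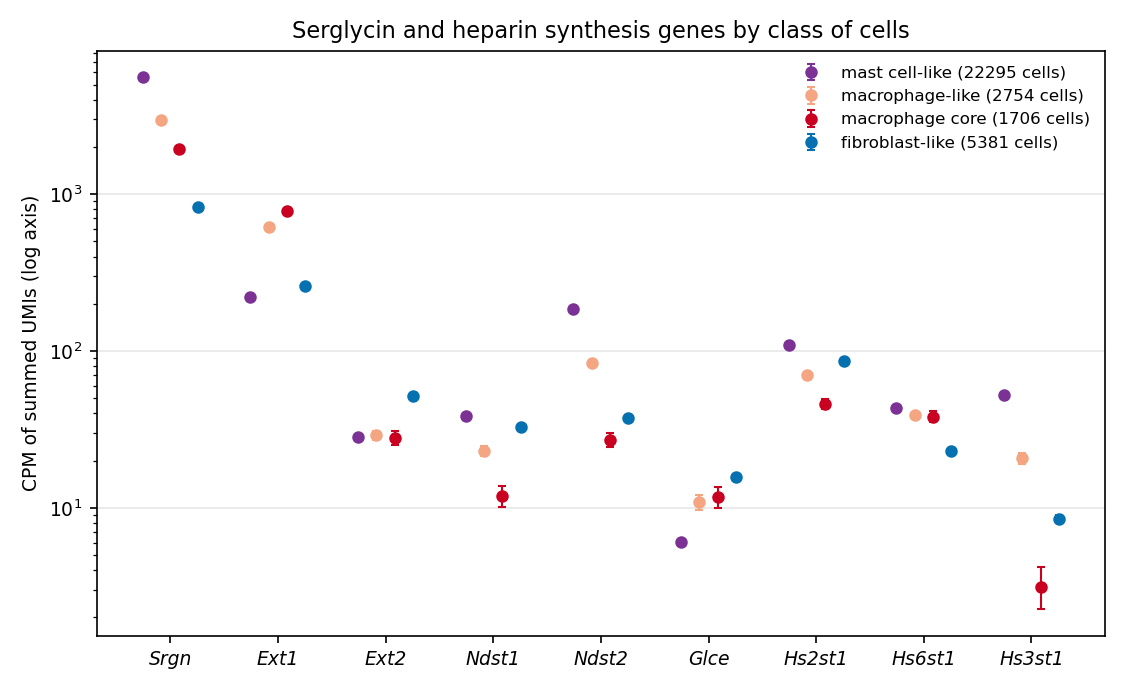
Level of each member (CPM of summed UMIs, log axis) in mast cell-like cells, the whole macrophage-like class, its core and fibroblast-like cells; bars are exact 95% Poisson intervals, often smaller than the points. Srgn, Ndst1, Ndst2, Hs2st1, Hs6st1 and Hs3st1 are highest in mast cell-like cells, Ext1 in the macrophage core, and Ext2 and Glce in fibroblast-like cells.

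Srgn (ENSMUSG00000020077; chr10:62493833-62527451, minus strand) was counted at 5550.2 CPM in mast cell-like cells (95% Poisson interval 5542 to 5559). It was at 1949 CPM in the macrophage core (1926 to 1972) and at 2978 CPM in the whole macrophage-like class. Fibroblast-like cells had 829.5 CPM (825.3 to 833.8). The mast cell-like level was 2.85 times that of the core (2.81 to 2.88), 1.86 times that of the whole class and 6.69 times that of fibroblast-like cells (6.65 to 6.73). In cells thinned to 6000 UMIs, every one of 20348 mast cell-like cells held Srgn, with a median of 33 UMIs and 19 to 53 from the 5th to the 95th percentile. The core had a median of 11 UMIs (3 to 25) and Srgn in 99.7% of 1175 thinned cells. Fibroblast-like cells had a median of 2 UMIs (0 to 18) and Srgn in 75.9% of 5218 cells. For comparison, the mast cell chymase gene Cma1 was found in 97.3% of the same fibroblast-like cells and in 99.3% of the core cells, so these shares do not separate a cell's own Srgn from counted mast cell RNA.

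The ratio of Srgn to Cma1 UMIs differed in the macrophage core from the other classes. It was 0.26 in mast cell-like cells (1687833 over 6496568 UMIs) and 0.254 in fibroblast-like cells (145827 over 573002). In the macrophage core it was 1.27 (27581 over 21704). Fibroblast-like Srgn thus stood to Cma1 nearly as it did in mast cell-like cells, and the core held several times more Srgn for its Cma1.

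Ext1 and Ext2, the 2 subunits of the chain polymerase, followed different orders. Ext1 (ENSMUSG00000061731; chr15:53064038-53346159, minus strand) was at 785.7 CPM in the macrophage core (771.2 to 800.5), 261.5 in fibroblast-like cells and 219.8 in mast cell-like cells. The core exceeded mast cell-like cells 3.58-fold (3.50 to 3.65) and fibroblast-like cells 3.0-fold (2.94 to 3.07). Ext1 was the only one of the 9 members over 2-fold higher in the core than in mast cell-like cells. It is a gene of 282 kb, and whether reads in introns were counted is not stated. Ext2 (ENSMUSG00000027198; chr2:93661028-93822568, minus strand) was at 51.4 CPM in fibroblast-like cells (50.4 to 52.5), 28.4 in mast cell-like cells (27.8 to 29.0) and 28.0 in the core (25.3 to 30.9). The mast cell-like and core levels of Ext2 could not be told apart by counting error, with a ratio of 1.01 (0.917 to 1.13). Fibroblast-like cells had 1.81 times the mast cell-like level (1.76 to 1.87).

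Of the Ndst1 and Ndst2 genes, Ndst2 differed more between mast cell-like cells and each other group. Ndst2 (ENSMUSG00000039308; chr14:20723730-20734562, minus strand) is the family member that mouse mast cells are known to need for heparin. It was at 186.4 CPM in mast cell-like cells (184.8 to 187.9), 27.2 in the macrophage core (24.6 to 30.1) and 37.5 in fibroblast-like cells (36.6 to 38.4). The mast cell-like level was 6.85 times that of the core (6.20 to 7.59), 2.22 times that of the whole macrophage-like class and 4.97 times that of fibroblast-like cells (4.84 to 5.09). Thinned to 6000 UMIs, 65.4% of mast cell-like cells, 12.8% of core cells and 18.1% of fibroblast-like cells held an Ndst2 UMI, and before thinning the shares were 83.7%, 18.2% and 52.4%. Ndst1 (ENSMUSG00000054008; chr18:60684494-60748650, minus strand) is the broadly expressed member of the family. Its level was 38.8 CPM in mast cell-like cells (38.1 to 39.5), 32.8 in fibroblast-like cells (32.0 to 33.7) and 11.8 in the core (10.1 to 13.7). Mast cell-like cells had 3.28 times the core level (2.82 to 3.85) and only 1.18 times the fibroblast-like level (1.14 to 1.22). Ndst1 overlaps the ribosomal protein gene Rps14 on the other strand, which was at 2040.2 to 3467 CPM in these 3 groups. Whether the counting used strand is not stated, so the level of Ndst1 is uncertain.

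Glce (ENSMUSG00000032252; chr9:62057248-62122655, minus strand), the epimerase, was lowest in mast cell-like cells. It was at 15.7 CPM in fibroblast-like cells (15.1 to 16.3), 11.7 in the macrophage core (10.0 to 13.7) and 6.02 in mast cell-like cells (5.75 to 6.31). Fibroblast-like cells had 2.61 times the mast cell-like level (2.46 to 2.77), and the core had 1.95 times that level (1.65 to 2.28). Between the core and fibroblast-like cells the ratio was 0.746 (0.634 to 0.873).

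The 3 O-sulfotransferase members differed in how closely they kept to mast cell-like cells. Hs3st1 (ENSMUSG00000051022; chr5:39613935-39755475, minus strand) makes the 3-O-sulfate that antithrombin binds. It was at 52.3 CPM in mast cell-like cells (51.5 to 53.1), 8.49 in fibroblast-like cells (8.07 to 8.93) and 3.11 in the macrophage core (2.26 to 4.17), where it rested on 44 UMIs in 1706 cells. The mast cell-like level was 16.8 times that of the core (12.5 to 23.1) and 6.16 times that of fibroblast-like cells (5.84 to 6.49). In the whole macrophage-like class the level was 20.8 CPM and the ratio 2.52 (2.32 to 2.73), and the mixed cells held 576 of the 620 Hs3st1 UMIs of that class. Hs2st1 (ENSMUSG00000040151; chr3:144429706-144570181, minus strand), which sulfates iduronic acid, was at 109.5 CPM in mast cell-like cells (108.4 to 110.7), 85.9 in fibroblast-like cells (84.6 to 87.3) and 45.9 in the core (42.5 to 49.6). The genes Gm43707 and Gm43560 overlap it on the same strand and were under 5 CPM in every class. The mast cell-like level of Hs2st1 was 2.38 times that of the core (2.21 to 2.58) and 1.27 times that of fibroblast-like cells (1.25 to 1.30). Hs6st1 (ENSMUSG00000045216; chr1:36068400-36106446, plus strand), which sulfates glucosamine, was at 43.0 CPM in mast cell-like cells (42.3 to 43.7), 38.2 in the core (35.0 to 41.5) and 23.0 in fibroblast-like cells (22.3 to 23.7). Mast cell-like and core cells were near each other for Hs6st1, with a ratio of 1.13 (1.03 to 1.23), and both lay above fibroblast-like cells, mast cell-like cells 1.87-fold (1.80 to 1.94).

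Set beside the mast cell markers, 8 of the 9 members in the macrophage core stood above the 0.0502 to 0.0718 of mast cell-like level that the markers showed. The exception was Hs3st1, at 0.0595, inside that range. Ndst2 in the core, at 0.146, and Srgn, at 0.351, were both above the highest marker. In fibroblast-like cells Srgn, at 0.149, lay inside the marker range of 0.137 to 0.158, and Hs3st1, at 0.162, lay just above it. Ndst2 was at 0.201 there, while Hs6st1 at 0.535, Hs2st1 at 0.785, Ndst1 at 0.847, Ext1 at 1.19, Ext2 at 1.81 and Glce at 2.61 were far above the markers. In the whole macrophage-like class all 9 members lay above the marker range of 0.319 to 0.383, Hs3st1 by least, at 0.397.

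**Figure D2:**
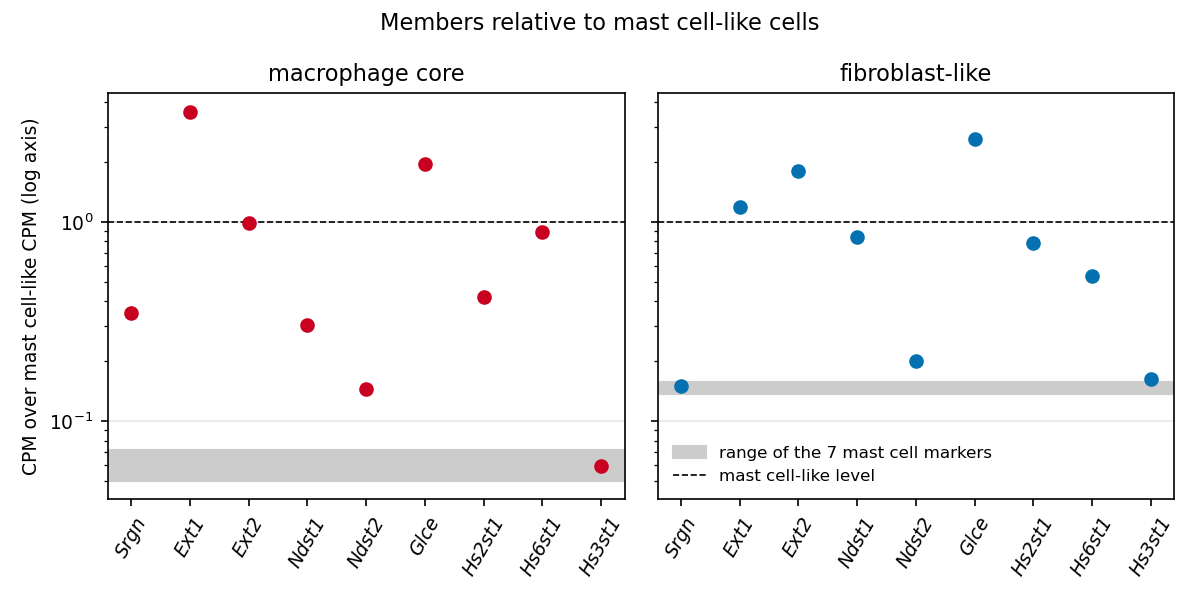
Level of each member over its mast cell-like level (log axis) in the macrophage core and in fibroblast-like cells; the grey band spans the same ratio for the 7 mast cell markers and the dashed line is the mast cell-like level. Hs3st1 in the core (0.0595) and Srgn in fibroblast-like cells (0.149) fall in the band, and the other members of each panel lie above it.

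The 3 MULTI-seq tags in the matrix, named Cafum, Matrigel and Macrophages, gave a second view of the fibroblast-like cells. What each tag stands for is not stated. The 2577 fibroblast-like cells called for the Matrigel tag alone had 361.2 CPM of Srgn (357.2 to 365.3) and 1404 of Cma1. The 356 called for the Cafum tag alone had 2033 CPM of Srgn (2007 to 2059) and 8019 of Cma1. Cafum was also the tag of 71.1% of mast cell-like cells. Relative to mast cell-like cells, Srgn stood at 0.0651 in the first group, inside the marker range of 0.0584 to 0.0727, and at 0.366 in the second, again inside the range of 0.336 to 0.388. Srgn thus moved with the mast cell markers in both groups. Hs3st1 did nearly the same, at 4.15 CPM with the Matrigel tag (0.0794 of mast cell-like level) and 19.95 with the Cafum tag (0.382). Ndst2 stood higher than the markers in both, at 21.8 CPM (0.117) and 80.5 CPM (0.432). Ext1 hardly differed between them, at 250.6 and 268.3 CPM, and Hs2st1 neither, at 83.1 and 88.2 CPM. Ext2 and Glce were higher with the Matrigel tag, at 56.0 against 40.1 CPM and 17.8 against 11.5 CPM. A further 1304 fibroblast-like cells (24.2%) were called for more than 1 tag and had 1584 CPM of Srgn and 6299 of Cma1. The 1098 called for no tag had 430.1 and 1623 CPM. The fibroblast-like level of 829.5 CPM of Srgn pools all these cells. In the macrophage core, 92.3% of cells were called for the Macrophages tag alone, and their Srgn was 1907 CPM, close to that of the whole core. The Matrigel tag alone was called in 47.9% of fibroblast-like cells and 0.35% of mast cell-like cells. Class and tag thus went largely together, and differences between classes cannot be cleanly told apart from differences between tags.

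Among the 8 finer mast cell-like clusters, Srgn, Ext2 and Hs6st1 were the most even members. Srgn ranged from 4771 to 6125 CPM (1.28-fold), Ext2 from 27.2 to 29.9 (1.10-fold) and Hs6st1 from 38.0 to 46.9 (1.23-fold). Ext1 varied the most, from 154.5 to 454.2 CPM (2.94-fold), followed by Ndst1 from 25.1 to 55.5 (2.21-fold) and Hs3st1 from 37.7 to 77.8 (2.06-fold). The highest Ext1, Ndst1, Glce (8.34 CPM) and Hs2st1 (153.8 CPM) were all in a single cluster of 2180 cells, whose leading genes include Nrgn and the receptor genes Mrgprb1 and Mrgprb2. The highest Ndst2 (235.8 CPM) was in another, of 3525 cells led by Atp8a2, Ctse and Slc6a4, which had the lowest Hs3st1. Every mast cell-like cluster exceeded the core and both fibroblast-like clusters in Srgn, Ndst2, Hs2st1 and Hs3st1. For Hs2st1 the gap was narrow, with a lowest mast cell-like cluster at 94.6 CPM and a highest fibroblast-like one at 85.2. For Ext1 all 8 lay below the core. A cluster of 3007 cells with all 7 mast cell markers stayed unnamed, since Prss34 of the basophil list was among its leading genes, and its Srgn was 5855 CPM. Its Ext2 (23.6 CPM) and Hs2st1 (89.6 CPM) lay below those of all 8 named clusters, so the ranges above would widen with it. A fibroblast-like cluster of 626 cells, with Cfd and Hp among its leading genes, had more Srgn (1741 CPM), Ndst2 (71.3) and Hs3st1 (19.2) than the larger one of 3691 cells (810.7, 37.6 and 8.35), and it also had more Cma1, 7472 against 3115 CPM. Its Ext1, at 104.6 CPM, was below the 288.8 of the larger cluster. Whether counted mast cell RNA accounts for these differences in Srgn, Ndst2 and Hs3st1 was not tested.

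**Figure D3:**
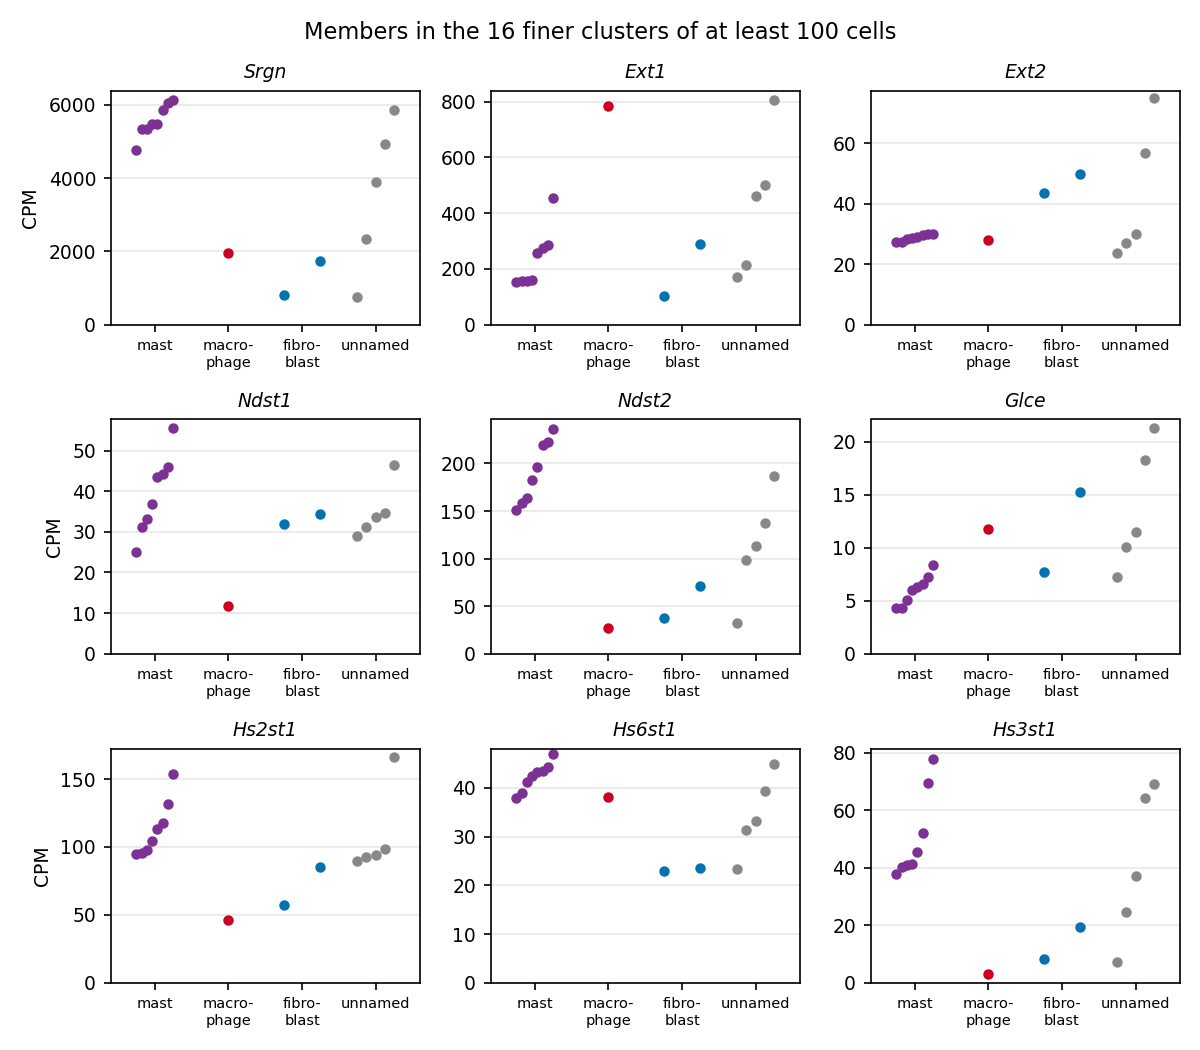
CPM of each member in the 16 finer clusters of at least 100 cells, 1 point a cluster, grouped by name (8 mast cell-like, 1 macrophage-like, which is the core, 2 fibroblast-like and 5 unnamed) and ordered by level within a name. Srgn, Ndst2, Hs2st1 and Hs3st1 are higher in every mast cell-like cluster than in the core and both fibroblast-like clusters, and Ext1 is lower in all 8 than in the core.

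Proliferating mast cell-like cells had less of 8 of the 9 members, by amounts under 2-fold. Cells with at least 3 of 6 proliferation genes detected after thinning numbered 2443 of 20348 (12.0%). No member was 2-fold higher in them (5.85% of 9627 genes were) and none was 2-fold lower (2.83% were). Srgn was at 4962 CPM in proliferating and 5714 in other mast cell-like cells, a ratio of 0.868 (0.865 to 0.872). The lowest ratios were those of Ndst1 at 0.684 (0.648 to 0.722), Ext1 at 0.697 (0.681 to 0.712) and Glce at 0.711 (0.619 to 0.815). Ext2 did not differ beyond counting error, at 1.02 (0.969 to 1.08). Proliferating cells were deeper, with a median of 21188 against 11454 UMIs, and the part of depth in these ratios was not tested.

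The rest of the pathway was described by 11 lists with 87 genes in the matrix. Of 7 genes for the linker, 5 passed 5 CPM against the core, with Fam20b, the xylose kinase, 2.66-fold higher in mast cell-like cells and Xylt2 lower, and a median log2 ratio of 0.55. Against fibroblast-like cells 6 passed, with 1 higher in mast cell-like cells (Xylt1) and 2 lower. Over all genes, 24.4% were at least 2-fold higher and 21.9% lower in mast cell-like cells than in the core. Against fibroblast-like cells the shares were 15.5% and 24.4%. Xylt1, the xylosyltransferase that starts the linker, was at 81.1 CPM in mast cell-like cells, 68.8 in the core and 38.1 in fibroblast-like cells. B3gat3, which adds its last sugar, was at 26.1, 17.7 and 16.1 CPM. Of the Ext relatives, Extl3, which starts chain growth, was at 6.44 CPM in mast cell-like cells, 12.8 in the core and 23.4 in fibroblast-like cells, and both passing members (Extl2 and Extl3) were over 2-fold higher in fibroblast-like than in mast cell-like cells.

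Of the 10 remaining sulfotransferase genes, 4 passed 5 CPM, and all 4 were over 2-fold higher in mast cell-like cells than in the core and than in fibroblast-like cells. Over all genes, 24.4% and 15.5% were at least 2-fold higher in these 2 comparisons. Ndst3 was at 98.4 CPM in mast cell-like cells, 6.29 in the core and 32.4 in fibroblast-like cells, while Ndst4 had 8, 0 and 22 UMIs. Of 8 further O-sulfotransferase genes 3 passed 5 CPM, and all 3 were over 2-fold higher in mast cell-like cells than in the core and than in fibroblast-like cells, with median log2 ratios of 3.90 and 2.53. Hs6st2 was at 701.0, 40.9 and 106.2 CPM in mast cell-like, core and fibroblast-like cells. Hs3st3b1 was at 29.1, 1.91 and 5.02 CPM, and Hs3st3a1 at 52.3, 11.1 and 12.5. In the core, Hs6st2, Hs3st3b1 and Ndst3 lay inside the range of the mast cell markers (0.0584, 0.0656 and 0.0639 of mast cell-like level), as Hs3st1 did. In fibroblast-like cells Hs6st2 also lay inside the marker range, at 0.152.

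Genes that supply sulfate and sugar donors were split. Of 12 genes 11 passed, with 3 over 2-fold higher in mast cell-like cells than in the core (Papss2, Slc35b3 and Slc35d1) and 1 lower (Slc26a2, a sulfate carrier), and a median log2 ratio of 0.61. Over all genes 24.4% were higher and 21.9% lower in this comparison, so the share higher was near that of all genes. Papss2, which makes the sulfate donor PAPS, was at 554.5 CPM in mast cell-like cells, 55.4 in the core and 122.3 in fibroblast-like cells. Slc35d1, a carrier of nucleotide sugars into the secretory pathway, was at 139.5, 19.0 and 37.1 CPM. Ugdh, which makes UDP-glucuronic acid, was instead highest in fibroblast-like cells, at 130.1 CPM against 29.1 in mast cell-like cells.

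Enzymes that trim or cleave heparan sulfate outside the cell were scarce in mast cell-like cells. Sulf2, a 6-O-endosulfatase, was at 1.06 CPM in mast cell-like cells, 112.1 in the core and 43.4 in fibroblast-like cells. Sulf1 was at 1.24, 2.47 and 83.1 CPM, and the heparanase gene Hpse at 0.431, 10.5 and 14.6 CPM. All 3 that passed were over 2-fold higher in fibroblast-like than in mast cell-like cells, where 24.4% of all genes were. Of 8 lysosomal breakdown genes, 1 was over 2-fold higher in mast cell-like cells than in the core (Ids, iduronate sulfatase, at 214.0 against 63.8 CPM) and 3 were lower (Idua, Hgsnat and Arsg), beside 24.4% and 21.9% of all genes. Hgsnat, which acetylates the chain in lysosomes, was at 25.7 CPM in mast cell-like cells and 64.5 in the core. Naglu was at 11.6, 12.7 and 29.8 CPM in mast cell-like, core and fibroblast-like cells.

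Core proteins other than serglycin were low in mast cell-like cells. Of 14 heparan sulfate core proteins, 12 passed and all 12 were over 2-fold higher in fibroblast-like than in mast cell-like cells, with a median log2 ratio of −5.64. Over all genes, 24.4% were at least 2-fold higher in this direction. Against the core 6 passed and 4 were over 2-fold higher in the core (Sdc1, Sdc3, Sdc4 and Tgfbr3), beside 21.9% of all genes. The 2 syndecans Sdc4 and Sdc3 were at 2.75 and 0.983 CPM in mast cell-like cells, 302.1 and 103.4 in the core and 199.5 and 42.0 in fibroblast-like cells. Tgfbr3 (betaglycan) was at 4.34, 9.68 and 291.3 CPM. Relative to fibroblast-like cells, Tgfbr3 stood at 0.0149 in mast cell-like cells and 0.0332 in the core. Both lay inside the ranges of the fibroblast markers, 0.0142 to 0.0272 and 0.0246 to 0.0467, so these levels do not separate own Tgfbr3 from counted fibroblast RNA. In mast cell-like cells none of the 14 exceeded the 6.49 CPM of Gpc6. Of 7 chondroitin and dermatan sulfate core proteins 3 passed against fibroblast-like cells, all higher there, such as Bgn (biglycan) at 2159 against 32.1 CPM, Vcan at 233.6 against 17.1 and Cspg4 at 20.4 against 0.299. In mast cell-like cells Bgn (0.0149 of fibroblast-like level) and Cspg4 (0.0147) lay inside the fibroblast marker range, and Vcan (0.0731) above it. Against the core 2 passed, with Vcan 2.81-fold higher in mast cell-like cells and Bgn lower, beside 24.4% and 21.9% of all genes. Of 16 genes for chondroitin and dermatan sulfate synthesis 13 passed, with 7 higher in fibroblast-like cells and none in mast cell-like cells, and a median log2 ratio of −1.94. Over all genes, 24.4% were at least 2-fold higher in fibroblast-like and 15.5% in mast cell-like cells. In fibroblast-like cells Csgalnact1, Ust and Chpf were at 69.3, 79.8 and 23.1 CPM, set against 1.33, 1.78 and 0.464 in mast cell-like cells. Ust was at 124.6 in the core. Chst15, which makes the doubly sulfated chondroitin found in some mast cells, was 5.00-fold higher in mast cell-like cells than in the core (29.7 against 5.94 CPM). Over fibroblast-like cells, at 19.4 CPM, the Chst15 ratio was only 1.53.

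Among granule proteins and carriers tied to serglycin, 4 of 6 passed and all 4 (Tpsab1, Mcpt2, Gzmb and Slc18a2) were over 2-fold higher in mast cell-like cells than in the core and than in fibroblast-like cells. Over all genes, 24.4% and 15.5% were at least 2-fold higher in these 2 comparisons. Gzmb, granzyme B, was at 622.7 CPM in mast cell-like cells, 41.6 in the core and 90.9 in fibroblast-like cells. Slc18a2, the vesicular amine carrier, was at 421 CPM, 40.6 and 70.9, and the tryptase gene Tpsab1 at 41.0, 4.31 and 7.36. Gzmb lay inside the mast cell marker range in both other classes, at 0.0667 and 0.146 of its mast cell-like level.

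**Figure D4:**
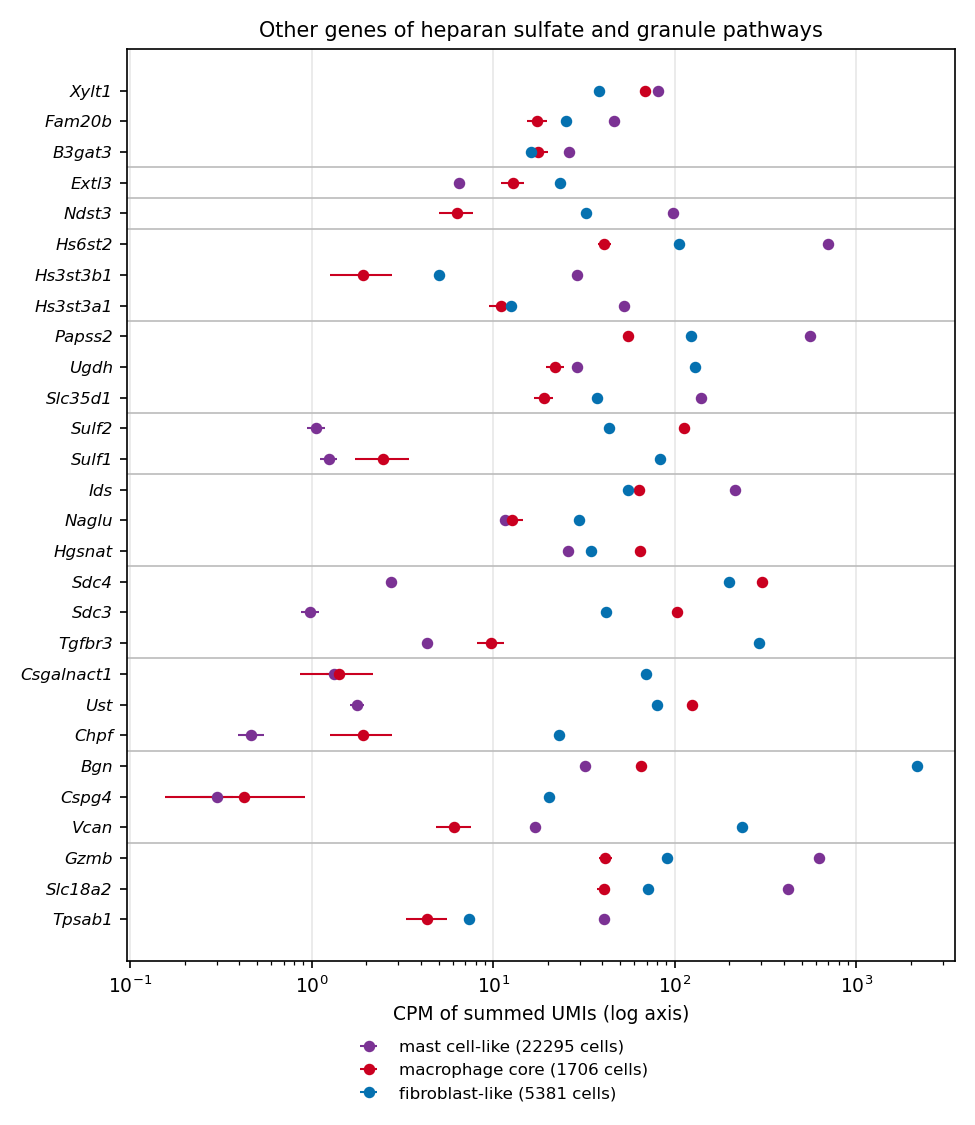
CPM (log axis) of the pathway genes with the largest differences, by list between grey lines, in mast cell-like cells, the macrophage core and fibroblast-like cells, with exact 95% Poisson intervals. Hs6st2 and Papss2 are highest in mast cell-like cells (701.0 and 554.5 CPM), Sulf2 and Sdc4 in the core (112.1 and 302.1), and Bgn in fibroblast-like cells (2159).

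The genes whose levels were most like those of Srgn and the Ndst members were sought over the 9 clusters of at least 100 cells, as a description without a test. For Srgn they were Ostf1, Fermt3, Fcer1g, Rhoh and Chn2, with Pearson r of log2(CPM + 10) from 0.993 to 0.985 among 3333 genes. For Ndst2 they were Cpa3, Rab37, Ikzf2, Ap1s3 and Adora3, with r from 0.994 to 0.987. For Ndst1 they were Bhlhe40, Plscr4, Mfge8, Ggnbp2 and Rfx7, with lower r, from 0.910 to 0.767. All clusters share 1 library and its background RNA, and 5 of the 9 are mast cell-like. Fcer1g, the common Fc receptor chain, is expressed in mast cells and macrophages alike, and Cpa3, the mast cell carboxypeptidase, is one of the 7 markers used to name the mast cell-like clusters.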

How the data were processed

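One droplet library (10x Chromium 3′ kit, per the labels) was analysed. The authors deposited unnormalized UMI counts per gene and cell barcode. Per the file headers, Cell Ranger 7.0.0 made them. The build mm10, STAR, R 4.1.3 and Seurat 4.1.1 are named in the submitters' processing notes without their roles. The annotation, intron counting, the use of strand and the barcode filter are not given in the sources used here. Tags (21.9% of all UMIs) were kept out of gene totals, and the second library in the labels, of tags, was not used here.

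Barcodes were kept (33964) given 500 or more genes, 1000 or more UMIs and no more than 10% mitochondrial UMIs. Scrublet (scanpy 1.11.5, expected rate 27.9%, threshold 0.564) called 3242 barcodes (9.31%). The 3206 among those passing were removed, and uncalled doublets remain. Cells were clustered with Leiden (leidenalg 0.10.2, igraph 0.11.9) at resolution 0.5 on 2000 variable genes, 30 components and 15 neighbours, leaving out 196 listed genes. The finer clusters used resolution 1.

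In a cluster, markers passed at 50 CPM and at 33% of their highest level. A name needed at least 3 markers and over 50% of its list, and clusters passing for more than 1 of the 3 classes stayed unnamed. These thresholds were set after the data were seen, and since names were rebuilt here, they may differ from those of the study. The lists also covered markers of 15 other cell types. Genes of 5 CPM or more in either class were called at 2-fold, with summed counts per class as CPM. Intervals are exact (Poisson, Clopper-Pearson, conditional binomial; scipy 1.17.1) and cover counting error only. Cells were thinned to 6000 UMIs, which left out 2981 shallower cells (mast cell-like 1947, macrophage-like 665, fibroblast-like 163). Tags were called at 2 times their background, Cafum at 1.4 times.

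The members and lists were chosen with earlier results of these data known. Named are all members, per list up to 3 genes with the largest log2 ratio among those of 20 CPM or more, relatives in the same enzyme family, and the 5 genes most like Srgn and each Ndst member among those of 100 CPM or more. Hpse, Chst15 and the genes named only as past 2-fold were chosen after their values were seen. One listed gene, Bpnt2, was matched through an older symbol. Coordinates come from GENCODE vM21 and promoters from RefSeq. The fold call was tested on simulated data.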

Additional observations from a re-analysis of the deposited data

How the results depend on the processing

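Between mast cell-like and macrophage-like cells, the class boundary and counted mast cell RNA moved the values most. The number of members 2-fold higher in mast cell-like cells was 2, and it became 5 at resolution 1, 5 without the mixed cells and 5 with the mast cell background subtracted. It was 4 by the mean of per-cell CPM, 4 among cells called for 1 tag and 3 in thinned cells. The number 2-fold higher in macrophage-like cells was 1, and 2 among cells called for 1 tag. Against fibroblast-like cells, 3 members were 2-fold higher in mast cell-like cells, and 4 with 1 tag or with background subtracted. The Srgn ratio of mast cell-like over macrophage-like was 1.864, and 1.827 with at least 1000 genes, 2.833 at resolution 1, 2.015 in thinned cells, 2.116 by the per-cell mean, 2.396 with 1 tag, 5.675 with background subtracted and 2.847 without the mixed cells. Over fibroblast-like cells it was 6.691, and 5.357 with called doublets kept, 6.797 with at most 5% mitochondrial UMIs, 6.792 at resolution 0.25, 6.372 at resolution 1, 6.772 with listed genes kept in the clustering, 6.823 in thinned cells, 6.755 by the per-cell mean, 15.33 with 1 tag and 6.988 without the finer cluster with Adipoq. The setting with 1 tag kept Cafum alone for mast cell-like, Macrophages alone for macrophage-like and Matrigel alone for fibroblast-like cells. It thus left out the 356 fibroblast-like cells with Cafum alone, which had 2033 CPM of Srgn. Leaving out the mixed cells or the Adipoq cluster was chosen after seeing the data. The cause of these shifts was not tested. The Srgn ratio did not turn in direction under any alternative that gave a value. The order of the classes stayed the same under all 10 alternatives that gave the 3 classes for Srgn, Ext1, Ndst1, Glce, Hs2st1 and Hs6st1. It held in 8 for Ndst2 and Hs3st1, where fibroblast-like cells passed the macrophage core, and in 5 for Ext2. No cluster met the macrophage name with doublets kept or at the 5% limit. Subtracting the mast cell background left no fibroblast-like Srgn for a ratio, and no fibroblast-like cluster had 3 adipocyte markers to leave out. No paired analysis was possible because there is 1 library. Depth limits Hs3st1, Glce and Ndst1 in the macrophage core, which rest on 44, 166 and 167 UMIs.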
